A study of Ailuropoda melanoleuca with 25 samples.

Results

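Established giant panda (Ailuropoda melanoleuca) induced pluripotent stem cells (GPiPSC) were compared with cells at day 8 of stage II, the last labelled step before them. Libraries were chosen by sample title, and 7 of the 25 libraries of the study enter the comparison: LB GPiPSC with 3 libraries, XR GPiPSC with 2 and stage II day 8 with 2. The cells of the study came from primary fibroblasts (PF) and were reprogrammed with episomal vectors that do not integrate into the genome. The labels do not say what LB and XR stand for, give no LB or XR to the stage II or stage I libraries, and do not say whether replicates came from different cultures. P-values therefore rest on the spread between replicate libraries, estimated over all 25, and this spread may be only a technical one. All 25 libraries carry the source name of primary fibroblasts, and no genotype, sex, age or passage is given. The other groups share the estimate of spread, define a covariate of the fit and give the earlier steps and reference levels: LB PF, XR PF, stage I day 8, stage I day 24, control day 16, A83-01 day 16 (a named inhibitor of TGF-beta family receptors), BACL control, BACL-CHIR99021 (CHIR99021 inhibits GSK3) and BACL LB GPiPSC, with 2 libraries each.

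Reprogramming turns a somatic cell into a pluripotent one by supplying a few transcription factors. As background, fibroblast genes are shut down and epithelial genes come on early, while the cell's own pluripotency network becomes self-sustaining late, when the supplied factors are no longer needed. Episomal vectors are lost as cells divide, so an established line has to run on its own genes. The comparison of an intermediate with established lines covers that last step, often called maturation.

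Expression was deposited for 22924 gene models, each known by a scaffold and a number along it, with no gene name attached. None of the 45 marker symbols chosen for pluripotent, fibroblast, epithelial and other cells matched a model, so the labelled cell types could not be checked against their markers, and results are given for groups of gene models by size of change, earlier behaviour, length and position. Levels are CPM, counts scaled to a common library size with TMM, a method that sets the typical model equal between libraries. In bulk RNA, fewer cells of a type and less RNA per cell cannot be told apart. Total estimated counts were 11605859 to 13913766 in the 7 libraries, and 3 counts corresponded to 0.184 to 0.325 CPM. XR GPiPSC replicates correlated at 0.993 in log2 CPM, stage II replicates at 0.986, and LB GPiPSC replicates 1 and 2 at 0.975. LB GPiPSC replicate 3 stood apart: it correlated at 0.962 with both other LB libraries and at 0.981 with both XR libraries.

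A second feature of the libraries is described ahead of the comparison, because it moves with it. It was measured after the data were examined. In the 18 libraries outside the comparison, 41.7% of the variation between replicates of the same group lay along a single pattern across models. Each library was then given a position along this pattern. The stage II libraries stood at -109 and -140, and only the first replicates of stage I day 8 and day 24 stood as low, at -119 and -130. The 5 GPiPSC libraries stood between 27.3 and 49.5. Replicates of 1 group could differ almost as much: stage I day 24 stood at -130 and -13.4, and XR PF at 50.2 and -62.9. Over the 17225 models tested, the pattern correlated at 0.58 with the log2 fold change of GPiPSC over stage II, although it was drawn from other libraries. The direction of the pattern was set so that stage II stood below 0, so the sign of this correlation is no separate result. The part of the pattern in the results was not tested. Results are therefore given with and without the position as a covariate of the fit, a choice made after the data were examined.

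**Figure D1:**
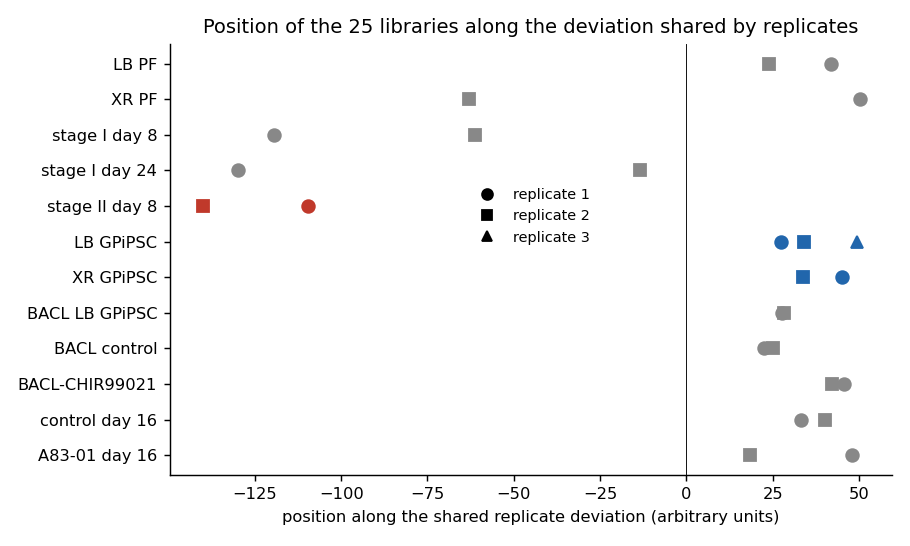
Position of each library (x axis, arbitrary units) along the deviation shared by replicates of the 18 libraries outside the comparison, by group; circles, squares and triangles are replicates 1, 2 and 3, red is stage II day 8 and blue the compared GPiPSC. The stage II libraries lie at -109 and -140 and the GPiPSC libraries at 27.3 to 49.5, while replicates of XR PF and stage I day 24 lie far apart. Replicates of control day 16 and of the BACL groups lie close together.

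More models changed between stage II day 8 and established GPiPSC than did not. Of 17225 models tested, 5342 were higher in GPiPSC (31%) and 6258 lower (36.3%), together 67.3%, at an adjusted p under 0.05 in edgeR's quasi-likelihood test. Over 8-fold changes were made by 1343 models upward and 1238 downward, and over 32-fold changes by 251 and 553. In CPM, the 5 GPiPSC libraries all lay above both stage II libraries for 33% of models and all below for 38.7%. Without stage II replicate 1 or 2, 10179 and 9020 models were called.

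The split by direction depends on how libraries are scaled. The 100 models with the most counts held 17.7 to 21.3% of a GPiPSC library and 26.1 to 27.5% of a stage II library. TMM factors were 1.24 to 1.33 in GPiPSC and 0.747 and 0.664 at stage II. Scaled to library totals alone, edgeR called 8154 higher and 3484 lower. The median log2 fold change over all models was then 0.73, against -0.08 with TMM. On log2(TPM + 1) with limma-trend, 8595 were higher and 2634 lower, with a median of 0.55. Of the models lower with TMM, 196 were called higher on that scale. No model higher with TMM was called lower on it.

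With the position along the shared replicate pattern as a covariate, 682 models were higher (3.96%) and 2092 lower (12.1%). Of the original calls, 600 higher and 1864 lower models were called again in the same direction. The share called again was larger among strong decreases than among strong increases. It was 908 of the 1238 models lower over 8-fold and 490 of the 553 lower over 32-fold, against 292 of the 1343 and 48 of the 251 higher ones. The gap between stage II and GPiPSC along the pattern is wider than the spread within any group, so this fit extends past the range in which the covariate was estimated.

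**Figure D2:**
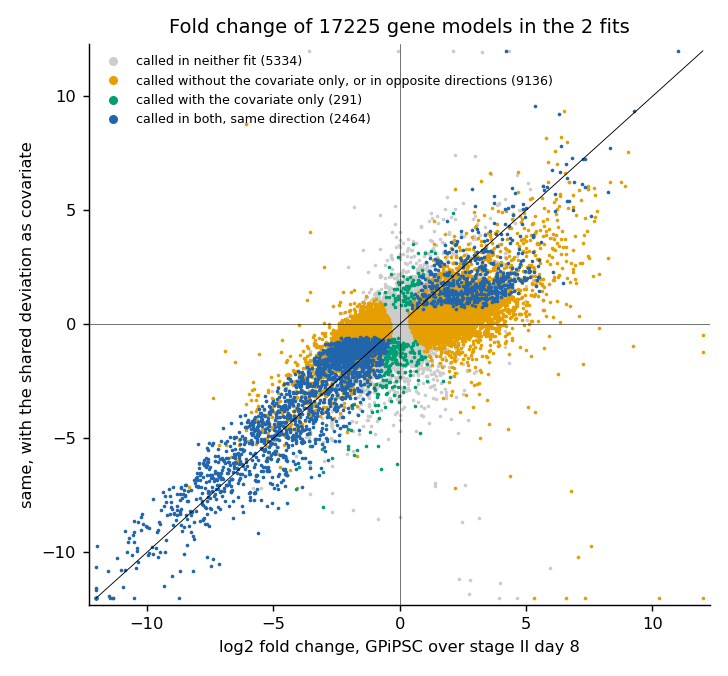
Log2 fold change of GPiPSC over stage II day 8 for 17225 models without (x axis) and with (y axis) the shared deviation as covariate, both cut at 12 (35 models lie beyond); the diagonal marks equal values. Strong decreases stay near the diagonal, whereas most increases lie below it, and 2464 models are called in both fits in the same direction.

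Strong decreases made up a larger share of the stage II libraries than strong increases did of the GPiPSC libraries. Models lower over 8-fold held 7.60 and 7.95% of all counts in the stage II libraries and 0.489 to 0.788% in the GPiPSC libraries. Models higher over 8-fold held 0.228 and 0.129% at stage II, 3.56, 4.06 and 4.70% in LB GPiPSC and 4.87 and 4.29% in XR GPiPSC. These shares describe models chosen for their change, so their direction is no separate result.

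A stricter set was called in the same direction by 6 fits: edgeR with all libraries, edgeR with the 7 libraries alone, DESeq2, limma-trend on log2(TPM + 1), library totals, and the covariate. It holds 596 higher and 1217 lower models, of which 291 and 688 changed over 8-fold. The groups outside the comparison show where these models stand elsewhere. The higher set had a median level of 22.5 and 23.0 CPM in BACL LB GPiPSC, near the 23.3 to 32.8 of the compared GPiPSC, against 2.98 and 3.96 at stage II. In PF the median was 6.96 to 15.7 CPM and at stage I day 8 it was 4.13 and 6.33. Stage II held the lowest level of the series, close to the lower stage I day 8 library. The set was chosen as lower at stage II than in GPiPSC, which favours a low stage II level. The lower set had a median of 43.5 and 48.8 CPM at stage II, within the 33.6 to 82.1 of the PF libraries, and 2.76 to 3.37 CPM in GPiPSC. In BACL LB GPiPSC and BACL control it stood at 2.08 to 2.36 CPM, and in BACL-CHIR99021 at 8.42 and 8.26. BACL-CHIR99021 therefore lay above BACL control, BACL LB GPiPSC and the compared GPiPSC for the lower set, by values that were not tested here.

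Among models with more than 3 counts in every compared library, called with 25 and with 7 libraries and not overlapping between the sides, the largest gain in deposited TPM (a level per length of transcript) was in evm.model.HIC_ASM_14.1216, a model of 198 bases. It had 16.9 and 13.4 CPM at stage II, 161, 164 and 81.8 in LB GPiPSC and 64.0 and 71.7 in XR GPiPSC. That all 5 GPiPSC libraries were above both stage II libraries follows from the rule of choice. LB replicates 1 and 2 were the highest. The log2 fold change was 2.66 ± 0.44 (SE; adjusted p = 4.33e-05, edgeR), and 1.28 with the covariate (adjusted p = 0.226). Mean TPM rose from 180 ± 45.9 (SD, n = 2) to 3136 ± 1012 (SD, n = 3) in LB and 1711 ± 89.1 (SD, n = 2) in XR.

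The next largest gain was in evm.model.HIC_ASM_8.1187, of 337 bases, with 40.6 and 28.0 CPM at stage II, 275, 407 and 294 in LB GPiPSC and 159 and 155 in XR GPiPSC. Its log2 fold change was 2.72 ± 0.40 (SE; adjusted p = 1.31e-05, edgeR), and 1.13 with the covariate (adjusted p = 0.0731). This model was not new to the GPiPSC: LB PF had 379 and 149 CPM, and stage II was the lowest group of the series. It was chosen for its gain from stage II, which favours a low stage II level.

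The largest loss in TPM was in evm.model.HIC_ASM_3.752, a model of 195 bases, from 1697 and 2458 CPM at stage II to 332, 396 and 268 in LB GPiPSC and 386 and 425 in XR GPiPSC. The log2 fold change was -2.50 ± 0.37 (SE; adjusted p = 1.51e-05, edgeR), and -0.35 with the covariate (adjusted p = 0.614). At stage I day 24 its replicates had 2451 and 636 CPM, so libraries of the same group also lay far apart.

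The next was evm.model.HIC_ASM_17.342, of 423 bases, from 4586 and 6223 CPM at stage II to 825, 880 and 627 in LB GPiPSC and 660 and 835 in XR GPiPSC. Its log2 fold change was -2.83 ± 0.29 (SE; adjusted p = 3.09e-07, edgeR) and -1.19 with the covariate (adjusted p = 0.0103). Of these 4 models it was the only one still called with the covariate. All 4 are short, and TPM of short models depends strongly on their effective length, which the deposited tables give per library.

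Some models went from silence to expression or the reverse. Silence was taken as at most 3 counts in each library of 1 side, and expression as at least 10 CPM in each library of the other. By this rule 7 models were on in GPiPSC and off at stage II (0.0305% of 22924), and 43 were off in GPiPSC and on at stage II (0.188%). The numbers depend on the rule and on a library: 173 were on and 229 off at 1 CPM in place of 10, and 22 were on without stage II replicate 1. The rule chose these models by the same libraries, so a call in the comparison is no separate result. edgeR with all libraries called all 7 and all 43, beside 31% higher and 36.3% lower of all models tested. With the covariate it called 2 of the 7 and 43 of the 43, beside 3.96% and 12.1%. Most of the 43 were expressed before stage II: 41 were at 10 CPM or more in both stage I day 8 libraries, 35 in both stage I day 24 libraries and 24 in all 4 PF libraries. In BACL LB GPiPSC 41 of the 43 were also at 3 counts or fewer, against 38 in BACL control and 31 in BACL-CHIR99021.

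The most abundant of the 43, a model of 606 bases on HIC_ASM_7, had 358 and 407 CPM at stage II, 381 and 487 in LB PF, 399 and 679 in XR PF, and 1562 and 1302 on day 8 of stage I. It had 0.130 CPM in LB GPiPSC replicate 1 and 0 in the other 4 GPiPSC libraries, so the stage II mean was at least 1967-fold higher than the highest floor of 3 counts. The next, of 1773 bases on HIC_ASM_12, did not fall steadily across the groups. XR PF had 302 and 255 CPM of it and LB PF 56.7 and 28.4. Stage I day 8 had 37.3 and 55.8, stage I day 24 had 1.58 and 2.44, stage II had 257 and 230, and GPiPSC at most 0.184. The stage libraries carry no LB or XR label, so time and a difference between LB and XR cannot be told apart. Among the 7, the most abundant was a model of 2031 bases on HIC_ASM_19, with 66.9, 79.0 and 128 CPM in LB GPiPSC, 122 and 130 in XR GPiPSC and 0 at stage II, in stage I and in XR PF. LB PF replicate 1 had 55.0 CPM of it and LB PF replicate 2 had 0, so the fibroblast libraries of 1 label already differed. Near-identical models may share reads, so 0 counts do not show that such a model is silent.

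The order of earlier steps was then read for the models that changed after stage II. These comparisons share no library with the change after stage II, but they come from the same fit. With the covariate they are not independent of that change, because an error in a model's covariate coefficient enters both. Such an error enters the change after stage II and the step from PF to stage I day 8 with opposite signs. From PF to stage I day 8, more of the models higher after stage II had fallen than risen: 2962 of 5342 were lower (55.4%) and 375 higher (7.02%), where 25.6% and 26% of all models tested were. Of the models lower after stage II more had risen than fallen, with 2980 of 6258 higher (47.6%) and 430 lower (6.87%). Most models called in both steps thus moved in opposite directions. The stage I day 8 libraries also lie low on the shared replicate pattern, at -119 and -61.1, and 3 of the 4 PF libraries at 23.8 to 50.2. With the covariate in both steps, 172 of 682 higher models had fallen (25.2%) and 92 had risen (13.5%), beside 11.7% and 14.7% of all models, and 624 of 2092 lower models had risen (29.8%) and 207 fallen (9.89%).

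From stage I day 8 to day 24 the moves pointed the same way as after stage II. The stage I day 8 libraries enter this step and the step from PF with opposite signs. Errors in those libraries therefore push these steps in opposite directions, so the turn between them is partly built in. Of the models higher after stage II, 1246 had risen between these days (23.3%) and 244 had fallen (4.57%), beside 18.6% and 13.9% of all models. Of the models lower after stage II, 1393 had fallen (22.3%) and 856 had risen (13.7%). With the covariate, 297 of the 682 higher models had risen (43.5%, beside 23.2% of all) and 51 had fallen. Of the 2092 lower models, 1088 had fallen (52%, beside 20% of all) and 246 had risen. Mean positions were -90.3 at stage I day 8, -71.6 at day 24, -125 at stage II and 37.0 and 39.3 in LB and XR GPiPSC. An error in a model's covariate coefficient thus enters this step and the change after stage II with the same sign. Part of their shared direction with the covariate can therefore be built in.

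LB and XR GPiPSC were compared with the same 2 stage II libraries, so their lists share those libraries. In LB GPiPSC 5054 models were higher (29.3%) and 5911 lower (34.3%), together 63.7%. In XR GPiPSC 5129 were higher (29.8%) and 5696 lower (33.1%), together 62.8%. With the covariate 486 (2.82%) were higher and 1682 (9.76%) lower in LB, together 12.6%, and 878 (5.1%) and 2193 (12.7%) in XR, together 17.8%. The test of LB against XR GPiPSC, which is the test of the difference between these changes, called 396 models (2.3%), 207 higher in LB (1.2%) and 189 higher in XR (1.1%). Of the 396, 161 changed in the same direction in LB and XR, 68 were called against stage II only in LB, 147 only in XR, 8 in opposite directions and 12 in neither. The number called depends on single libraries: 1237 without LB GPiPSC replicate 3, 132 and 178 without LB replicate 1 or 2, 30 and 17 without XR replicate 1 or 2, and 201 with the 7 libraries alone. Of those 201, 137 were among the 396. With the covariate the test of LB against XR called 1558 (9.04%), 700 higher in LB (4.06%) and 858 higher in XR (4.98%).

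Among models called with 25 and 7 libraries, with no overlap, the largest excess in LB was in evm.model.HIC_ASM_4.423. It had 15.5, 20.4 and 8.41 CPM in LB GPiPSC and 0.772 and 1.17 in XR GPiPSC, with 3.66 and 4.01 at stage II between them. The LB over XR log2 fold change was 3.91 ± 0.71 (SE; adjusted p = 0.00914, edgeR), and the call was lost without XR replicate 1 (adjusted p = 0.191) or 2 (adjusted p = 0.155). The next, evm.model.HIC_ASM_19.369, had 87.9 and 94.8 CPM at stage II. It fell in both, to 27.2, 23.8 and 17.5 CPM in LB and to 2.19 and 1.78 in XR. In BACL LB GPiPSC evm.model.HIC_ASM_4.423 had 40.2 and 39.2 CPM, whereas evm.model.HIC_ASM_19.369 had 0.0623 and 0.202, below both XR libraries. Its LB over XR log2 fold change was 3.52 ± 0.69 (SE; adjusted p = 0.0118, edgeR), lost without XR replicate 1 (adjusted p = 0.176) or 2 (adjusted p = 0.223).

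The largest excess in XR was in evm.model.HIC_ASM_6.513, a model of 5211 bases, with 80.5 and 93.7 CPM in XR GPiPSC, 3.11, 12.6 and 8.99 in LB GPiPSC and 1.68 and 0.758 at stage II. Its LB over XR log2 fold change was -3.40 ± 0.41 (SE; adjusted p = 0.000459, edgeR). In BACL LB GPiPSC it stood at 0.499 and 0.672 CPM, and no library outside XR GPiPSC exceeded the 12.6 CPM of LB replicate 2. The next, evm.model.HIC_ASM_12.56, had 40.0 and 38.2 CPM in XR GPiPSC, 2.98, 3.86 and 11.0 in LB GPiPSC and 9.01 and 8.02 at stage II (-2.72 ± 0.37 SE; adjusted p = 0.00109, edgeR). The fibroblasts differed in the same way, with 38.1 and 37.0 CPM in XR PF and 1.48 and 0.606 in LB PF. Both of these calls were kept in all 17 alternatives run for them.

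Changed models were also described by position, the only annotation the identifiers give. Runs of at least 5 neighbouring tested models, all called in 1 direction and changed over 4-fold, numbered 23 upward with 131 models and 24 downward with 147. With the covariate, 29 of the 131 and 96 of the 147 were called, beside 451 of all 2734 models higher over 4-fold and 1328 of all 2353 lower over 4-fold. Neighbouring models may be copies that share reads, or parts of 1 gene, which the files do not tell. The 4 runs described here were singled out after their values were seen. Most of their members were also called with the covariate. That holds for other runs too, such as models 1221 to 1237 on HIC_ASM_3, with 7 of 8.

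On HIC_ASM_13, 7 neighbouring models numbered 725 to 734, of 675 to 1272 bases, were all higher and all called with the covariate. Summed over the run, CPM was 24.2 and 22.4 at stage II, 773, 731 and 942 in LB GPiPSC and 1278 and 1450 in XR GPiPSC. Log2 fold changes of the members, which were chosen as called and changed over 4-fold, ran from 3.37 to 6.92. In fibroblasts the run stood at 28.4 and 27.4 CPM in XR PF and at 104 and 21.8 in LB PF, whose replicates lay far apart. It stood at 31.4 and 27.2 CPM at stage I day 8 and at 167 and 154 at stage I day 24. It stood at 645 and 639 CPM in BACL LB GPiPSC, 441 and 435 in BACL control and 130 and 127 in BACL-CHIR99021.

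The downward runs differed in where else they were high. On HIC_ASM_1, 6 models numbered 1027 to 1033 summed to 8465 and 5490 CPM in LB PF, 7861 and 4516 in XR PF and 618 and 487 at stage II. They reached at most 1.56 CPM in GPiPSC, and 5 of the 6 were called with the covariate. On HIC_ASM_7, 5 models numbered 27 to 36 summed to 39.7 and 31.6 CPM at stage II and to 0.307 to 0.972 in GPiPSC, and all 5 were called with the covariate. LB PF had 13.7 and 30.1 CPM and XR PF 266 and 389. Control day 16 had 10911 and 11673 CPM of this run, the highest of the series, and A83-01 day 16 had 2280 and 2812. On HIC_ASM_17, 10 models numbered 286 to 297 summed to 182 and 247 CPM at stage II, to 48.6, 41.0 and 9.05 in LB GPiPSC and to 13.1 and 14.4 in XR GPiPSC, and 8 were called with the covariate. PF libraries had 237 to 530 CPM of it. LB GPiPSC replicate 3 was the lowest library of the series for that run.

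**Figure D3:**
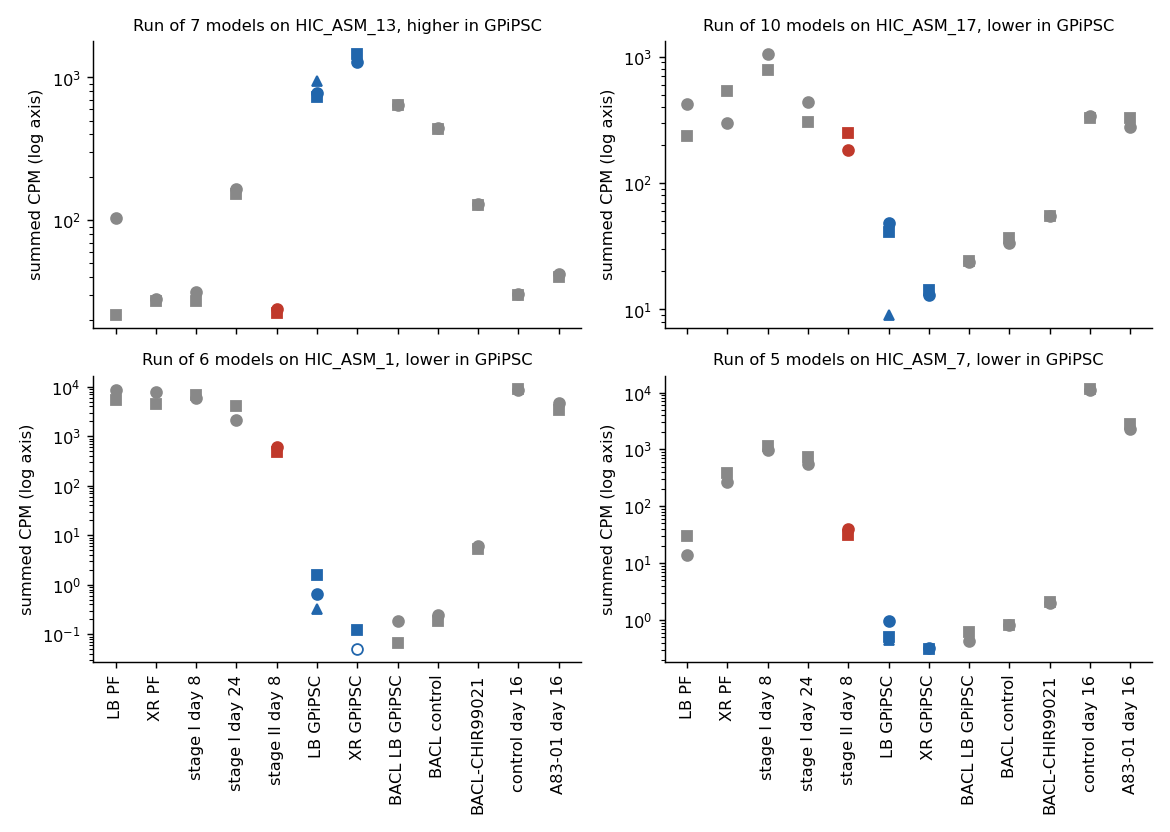
Summed CPM (log axis) of 4 runs of neighbouring models in the 25 libraries by group; circles, squares and triangles are replicates 1, 2 and 3, red is stage II day 8, blue the compared GPiPSC, and an open circle is a sum of 0 drawn at 0.05. The HIC_ASM_13 run is at 24.2 and 22.4 at stage II and at 731 to 1450 in GPiPSC, and the other 3 fall from stage II to GPiPSC.

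Whole scaffolds shifted as well. Over the 21 scaffolds with at least 100 tested models, the median log2 fold change ran from -0.86 on HIC_ASM_16 (19.3% of its models higher, 50.4% lower) to 0.64 on HIC_ASM_19 (42.7% higher, 29.7% lower). HIC_ASM_3 was at -0.61, and HIC_ASM_18 and HIC_ASM_4 at 0.60 and 0.59. LB and XR each showed this, at -0.75 and -0.91 on HIC_ASM_16 and 0.54 and 0.61 on HIC_ASM_19. In most groups the replicates differed along a similar order of scaffolds. Stage I day 24 replicate 2 over replicate 1 ran from -0.21 on HIC_ASM_16 to 0.29 on HIC_ASM_4, and its scaffold medians correlated with those of GPiPSC over stage II at 0.88 over 21 scaffolds. Stage II replicate 2 over 1 ran from 0.14 to -0.13 on HIC_ASM_16 and HIC_ASM_18, with a correlation of -0.87, but it shares libraries with the comparison. LB and XR GPiPSC, which also share libraries with it, gave 0.79 and -0.88. The correlation was 0.75 for LB PF, -0.84 for XR PF and 0.86 for stage I day 8. It was 0.72 for control day 16 and -0.76 for BACL-CHIR99021, whose medians ran only from -0.018 to 0.040 and -0.025 to 0.003. In the remaining groups it was weaker, at -0.02 for BACL LB GPiPSC, 0.18 for BACL control and -0.41 for A83-01 day 16. With the covariate the scaffold medians ran from -0.39 to 0.15. On log2(TPM + 1) they ran from 0.10 on HIC_ASM_16 to 1.14 on HIC_ASM_18, so scaffolds below 0 with TMM turned to above 0 on that scale.

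**Figure D4:**
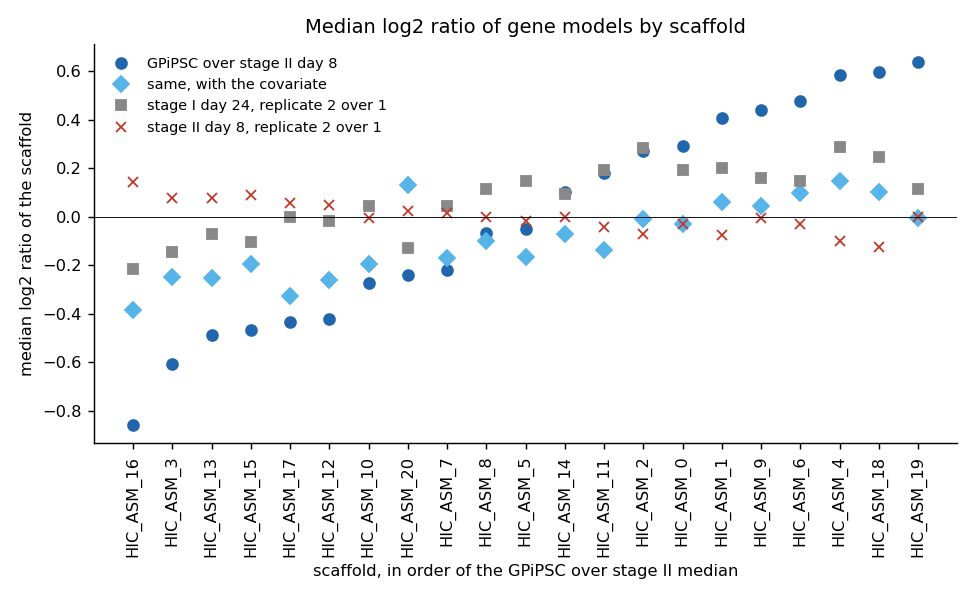
Median log2 ratio (y axis) of the tested models of each of 21 scaffolds (x axis, in order of GPiPSC over stage II day 8), without and with the covariate, and between the replicates of stage I day 24 and of stage II day 8. The GPiPSC medians run from -0.86 to 0.64, and from -0.39 to 0.15 with the covariate.

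Length showed the same relation. Models of 4000 bases and over had a median log2 fold change of 0.79, with 48.5% higher and 25.1% lower, whereas models of 500 to under 1000 bases had -0.35, with 25.2% higher and 40.8% lower, and models under 500 bases -0.11. In each of the 5 GPiPSC libraries the longest models stood highest against the stage II mean, at 0.53 to 0.70. Between the replicates of stage I day 24 the longest models differed by 0.55 and those of 500 to under 1000 bases by -0.12, and between XR PF replicates by -0.53 and 0.15. With the covariate the longest models had a median of -0.28 and those under 500 bases -0.05, so the order turned. On log2(TPM + 1) the longest models had a median of 0.78, those under 500 bases 0.80 and those of 500 to under 1000 bases 0.45. Between LB and XR GPiPSC the medians of the 5 bins stayed within -0.07 and 0.

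**Figure D5:**
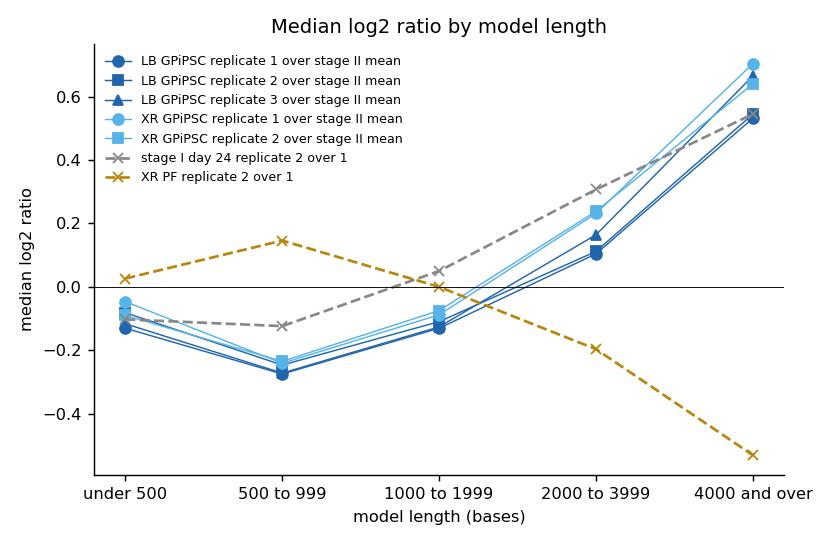
Median log2 ratio (y axis) by model length in bases (x axis) for each of the 5 GPiPSC libraries over the stage II mean (solid), and for replicate 2 over 1 of stage I day 24 and XR PF (dashed). The 5 solid lines end at 0.53 to 0.70 for the longest models, and the dashed lines at 0.55 and -0.53.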

How the data were processed

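RNA libraries were made with an NEBNext Ultra kit from 2 μg of total RNA, per the labels' protocols. Kallisto is named in the submitters' processing notes; no version, index or build is given in the sources used here. The deposited estimated counts per gene model were rounded to whole numbers. The deposited TPM values, scaled by the authors' tool to effective length and library total, served for alternatives and for choosing named models. No identifier matched the RefSeq table (0 of 22924), so no sequence is shown. Lengths were taken as coding lengths because 91.6% are multiples of 3, which no annotation was at hand to check.

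All 25 libraries entered 1 edgeR 4.0.16 fit of 12 groups (R 4.3.3; 13 residual degrees of freedom; filterByExpr, TMM, robust quasi-likelihood F tests, Benjamini-Hochberg adjustment over 17225 models). GPiPSC is the mean of the LB and XR coefficients. SE values come from the F statistic. Positions on the shared pattern are projections on the first singular vector of within-group deviations in log2 CPM (prior count 2). Medians of libraries use log2(CPM + 0.5). Named models: the 2 per direction with the largest TPM difference (main comparison) or fold change and at least 10 CPM in a group (LB against XR), called in the fits of 25 and of 7 libraries, with over 3 counts per library and no overlap. Members, lists and rules were chosen with earlier results of these data known. Alternatives included DESeq2 1.42.0 and limma 3.58.1, and the edgeR step was tested on simulated data. Pooled spread makes p-values too small for groups that vary more. Floors cover counting error only.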

Additional observations from a re-analysis of the deposited data

Results flagged for a closer look

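The change after stage II differed between LB and XR GPiPSC in 396 models by the edgeR test of LB against XR, and 8 of these were called in opposite directions against stage II day 8, 5 of them higher in LB and lower in XR and 3 the reverse. The number of models called ran from 17 to 1237 when single GPiPSC libraries were left out.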

How the results depend on the processing

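Depth limits low models: 3 counts are 0.184 to 0.325 CPM. Of 197 alternative values for counts and ranges, 151 stayed within 1.5 times the value given, or within 1 SD over the 5 GPiPSC libraries for ranges; the exceptions follow, and their cause was not tested unless stated. Against a 2-fold change (glmTreat, a stricter question) 6830 models were called for GPiPSC, 6220 for LB, 6497 for XR and 29 for LB against XR. With the covariate the counts were 2774, 2168, 3071 and 1558. With only the 7 libraries and the covariate, edgeR called 0, 0, 0 and 108 (531 at an unadjusted p under 0.05 for GPiPSC), where positions vary little within groups against the gap between them; DESeq2 without the covariate called 11587 for GPiPSC. LB against XR gave 886 with DESeq2, 646 on log2(TPM + 1) (28.2% higher in LB, against 52.3%, and 40.2% on log2(TPM + 0.1)) and 201 with 7 libraries. Of the GPiPSC calls 46.1% were higher, against 70.1% with library totals, 76.5% on log2(TPM + 1), 75.5% on log2(TPM + 0.1) and 24.6% with the covariate.

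The labels do not say whether replicate numbers pair libraries across groups. Deviations of same-numbered libraries correlated between -0.09 and 0.13. These values cannot exclude pairing, because the 2 deviations within stage II day 8 or within XR GPiPSC mirror each other. With a replicate block 11303 models were called for GPiPSC and 1131 for LB against XR, beside 11600 and 396 without it.

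Leaving out 1 library gave 9020 to 11544 calls for GPiPSC, 8316 to 10684 for LB, 8421 to 9619 for XR and 17 to 1237 for LB against XR. A group left with 1 library was taken to vary like the others. Models on in GPiPSC were 7 to 22 (22 without stage II replicate 1) and off 43 to 53, and 173 and 229 at 1 CPM. For the first step, models higher after stage II and higher at stage I day 8 than in PF were 240 to 416 (240 without stage II replicate 2), higher then lower 2329 to 2884, lower then higher 2503 to 3053 and lower in both 334 to 404. On log2(TPM + 1) the last 3 were 4657, 1066 and 283, and with the covariate the 4 were 92, 172, 624 and 207. For stage I day 24 over day 8 these ranges were 905 to 1173, 134 to 273 (134 without stage II replicate 2), 626 to 791 and 1151 to 1520. On log2(TPM + 1) the last 2 were 419 and 773, and with the covariate the first 3 were 297, 51 and 246. The longest minus the shortest length bin was 0.90 (0.77 to 0.90 leaving out libraries), 0.73 with effective-length offsets, -0.019 on log2(TPM + 1) and -0.24 with the covariate. The range over scaffolds was 1.41 to 1.61 leaving out libraries, 1.05 on log2(TPM + 1) and 0.53 with the covariate. With 7 libraries and the covariate evm.model.HIC_ASM_3.752 and evm.model.HIC_ASM_17.342 were at 0.53 and 0.24 (adjusted p = 1.00 each, edgeR).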
